A study of Mus musculus with 6 samples.

Results

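Prkcd, Tnnt1, Ntng1, Plekhg1, Slitrk6, Plcb4, Vav3, Ramp3, Synpo2 and Zmat4 are 10 genes named as markers of thalamic relay and reticular neurons, out of 24513 genes counted in whole-hypothalamus RNA. They were chosen by their read counts in NS-DADm against WT libraries, after thalamic markers had been seen to be low in the NS-DADm libraries of this experiment, so the contrast between the groups is given for them as a description and no test is claimed from it. All 10 had enough reads to enter the fit, which covered 15894 genes. The groups were 3 NS-DADm mice and 3 WT mice, all of the C57BL/6 strain, 3 to 4 months old, with 1 mouse per library. From knowledge of the line and not from the labels, NS-DADm mice carry inherited mutations in the deacetylase-activating domain of both nuclear receptor corepressors, NCOR1 and SMRT, in every tissue. That domain binds and activates the histone deacetylase HDAC3, and the comparison asks how hypothalamic transcripts differ when it is mutated. The labels name the hypothalamus as the only tissue and give no detail of the dissection.

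The thalamus lies directly above the hypothalamus and sends sensory and motor signals on to the cerebral cortex. Its relay neurons are excitatory, release glutamate and switch between tonic firing and bursts carried by T-type calcium channels. A thin shell of inhibitory cells, the thalamic reticular nucleus, surrounds them and releases GABA onto them. The 10 genes mix signalling enzymes, activators of small GTPases, surface proteins of axons and synapses, and proteins of the contractile and actin apparatus.

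The libraries held 24173076 to 27606309 reads on genes, and levels are given as normalised read counts (CPM, scaled to library size with TMM factors). No library was a duplicate of another in its group, since the chi-square per degree of freedom between them was 3.30 to 9.98, against about 1 for counting noise. NS-DADm 2 stood apart in growth hormone, a pituitary transcript, with 1810 CPM of Gh in NS-DADm 2, against 167 and 172 CPM in NS-DADm 1 and 3 and 30.5, 40.6 and 96.0 CPM in WT 1, 2 and 3. Without that library the fit called 5 genes in all, against 104 with all 6 libraries, and 0 genes of any list below in either direction.

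The signalling enzymes on the list both belong to lipid signalling through diacylglycerol. Prkcd encodes protein kinase C delta, a diacylglycerol-activated kinase (chromosome 14, 30595354 to 30626210, minus strand, mm10). It measured 30.2, 13.3 and 21.4 CPM in NS-DADm 1, 2 and 3, against 163, 63.7 and 86.5 CPM in WT 1, 2 and 3. The highest NS-DADm library stayed under the lowest WT library, while WT 1 and WT 2 themselves differed 2.55-fold. Group means were 21.6 ± 8.5 CPM in NS-DADm mice, against 104 ± 52 CPM in WT mice (SD, n = 3 each), a log2 fold change of -2.28 ± 0.54 (SE). Plcb4 encodes phospholipase C beta 4, which acts below Gq-coupled receptors and makes the diacylglycerol that kinases of the Prkcd family bind (chromosome 2, 135659011 to 136014593, plus strand). It measured 117, 121 and 121 CPM in NS-DADm 1, 2 and 3, against 147, 137 and 145 CPM in WT 1, 2 and 3. Here, too, the groups did not overlap, but the gap was small, with a log2 fold change of -0.25 ± 0.05 (SE), the smallest of the 10.

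A pair of guanine nucleotide exchange factors, which load small GTPases with GTP, is on the list. Vav3, a phosphotyrosine-regulated exchange factor (chromosome 3, 109340653 to 109685698, plus strand), had 11.7, 9.81 and 11.9 CPM in NS-DADm 1, 2 and 3, against 30.7, 19.2 and 25.1 CPM in WT 1, 2 and 3. Plekhg1, which carries a pleckstrin-homology domain beside its exchange domain (chromosome 10, 3740364 to 3967303, plus strand), had 34.9, 28.6 and 34.3 CPM in NS-DADm 1, 2 and 3, against 87.6, 60.1 and 71.9 CPM in WT 1, 2 and 3. Both genes kept the NS-DADm libraries close together and under all WT libraries, and both had a log2 fold change of -1.17, with SE of 0.17 for Vav3 and 0.15 for Plekhg1. The closest other transcript to Plekhg1 was Gm7126, at 87.4% identity over 1734 bases.

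Surface proteins make up the next group. Ntng1 encodes netrin-G1, a membrane-anchored adhesion protein of thalamocortical axons whose partner is NGL-1, the product of Lrrc4c (chromosome 3, 109780040 to 110144011, minus strand). It measured 65.5, 61.5 and 66.6 CPM in NS-DADm 1, 2 and 3, against 145, 93.8 and 124 CPM in WT 1, 2 and 3. Slitrk6, a leucine-rich repeat membrane protein that influences neurite growth (chromosome 14, 110748580 to 110755149, minus strand), measured 19.3, 17.3 and 20.7 CPM in NS-DADm 1, 2 and 3, against 34.6, 24.9 and 33.9 CPM in WT 1, 2 and 3. In both, the NS-DADm libraries lay within a narrow band and WT 2 was the WT library nearest to it. The log2 fold changes were -0.91 ± 0.16 (SE) for Ntng1 and -0.71 ± 0.13 (SE) for Slitrk6. Ramp3 encodes a receptor activity-modifying protein, which pairs with the calcitonin-receptor-like receptor to form an adrenomedullin receptor and with the calcitonin receptor to form an amylin receptor (chromosome 11, 6658521 to 6677475, plus strand). It measured 6.34, 4.67 and 6.58 CPM in NS-DADm 1, 2 and 3, against 35.7, 15.6 and 23.6 CPM in WT 1, 2 and 3. The groups were clearly apart, with a log2 fold change of -2.09 ± 0.38 (SE), and WT 1 exceeded WT 2 by 2.28-fold. An opposite-strand gene, Gm11978, shares 101 bases of Ramp3 exon (7.32%), and reads there could not be assigned by strand with the information at hand. The exons of the other 9 markers overlapped no other annotated gene.

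Tnnt1, the troponin T of slow skeletal muscle and a marker of relay neurons in sensory and motor nuclei (chromosome 7, 4504570 to 4516382, minus strand), was the scarcest. It measured 2.62, 1.01 and 2.17 CPM in NS-DADm 1, 2 and 3, against 13.5, 6.07 and 9.62 CPM in WT 1, 2 and 3, resting on 28 to 64 reads in NS-DADm and 166 to 368 reads in WT libraries. Synpo2, an actin-binding relative of synaptopodin (chromosome 3, 123076519 to 123236149, minus strand), measured 19.1, 13.9 and 18.6 CPM in NS-DADm 1, 2 and 3, against 53.1, 29.1 and 36.8 CPM in WT 1, 2 and 3. Neither gene overlapped between groups, and their log2 fold changes were -2.34 ± 0.44 (SE) for Tnnt1 and -1.21 ± 0.28 (SE) for Synpo2. Zmat4, which encodes a protein with matrin-type zinc fingers (chromosome 8, 23636019 to 24156585, plus strand), measured 53.7, 53.7 and 57.2 CPM in NS-DADm 1, 2 and 3, against 83.4, 69.7 and 82.2 CPM in WT 1, 2 and 3. Its log2 fold change was -0.52 ± 0.07 (SE), the second smallest after Plcb4.

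**Figure D1:**
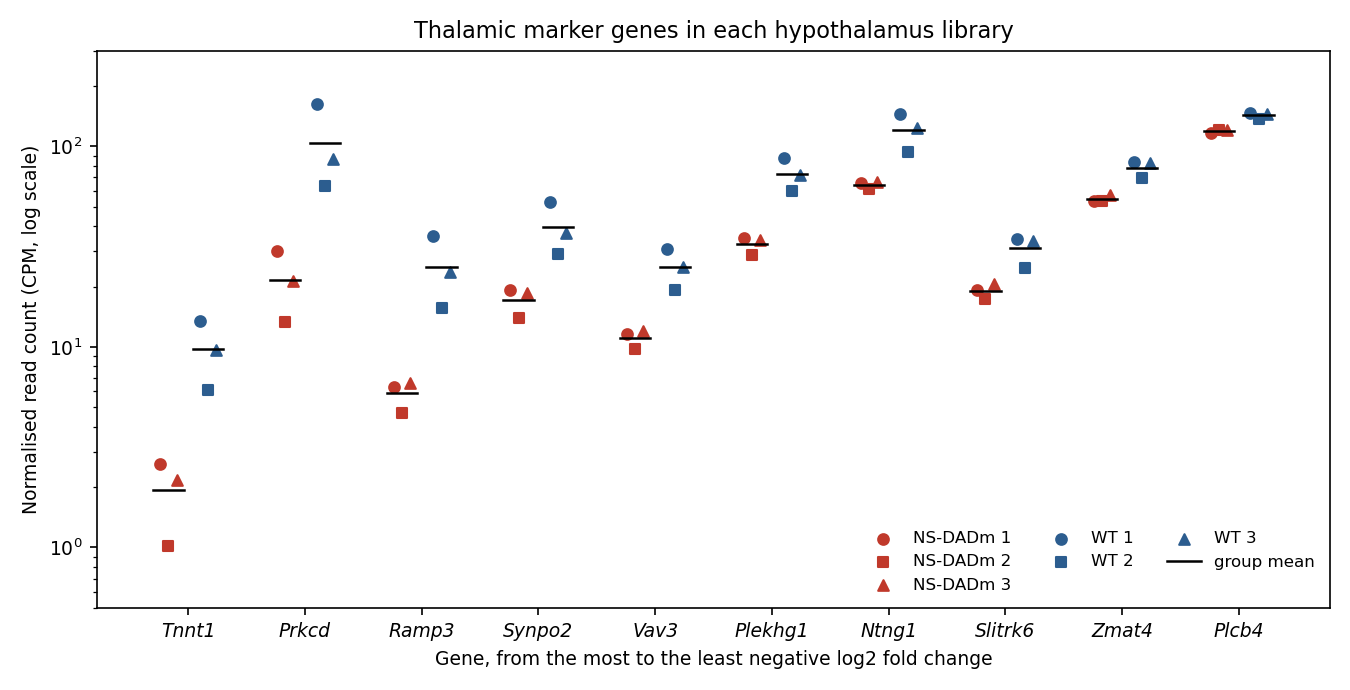
Normalised read count (CPM, log scale) of the 10 thalamic markers in each of 3 NS-DADm (red, left in each pair) and 3 WT (blue, right) libraries, with the group mean as a bar and genes ordered by fitted log2 fold change. Every red point lies under every blue point of the same gene, and the gap narrows to the right, where Plcb4 has 117 to 121 CPM in NS-DADm libraries, against 137 to 147 CPM in WT libraries.

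The start-site windows of the markers with the largest fitted change are printed, running from 250 bases before to 50 bases after the start (RefSeq, GRCm38.p6). Whether any motif in them plays a part in the levels was not tested. Capitals mark matches to a TATA box (TATAAA) or a GC box (CCGCCC), on either strand.
Tnnt1, chr7:4515926-4516225, minus strand: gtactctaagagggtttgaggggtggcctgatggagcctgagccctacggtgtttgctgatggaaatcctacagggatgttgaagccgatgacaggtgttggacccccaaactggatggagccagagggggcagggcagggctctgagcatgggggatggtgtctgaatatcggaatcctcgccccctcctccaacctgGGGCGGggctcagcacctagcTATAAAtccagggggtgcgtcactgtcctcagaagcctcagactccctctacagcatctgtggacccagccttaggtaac
Prkcd, chr14:30626159-30626458, minus strand: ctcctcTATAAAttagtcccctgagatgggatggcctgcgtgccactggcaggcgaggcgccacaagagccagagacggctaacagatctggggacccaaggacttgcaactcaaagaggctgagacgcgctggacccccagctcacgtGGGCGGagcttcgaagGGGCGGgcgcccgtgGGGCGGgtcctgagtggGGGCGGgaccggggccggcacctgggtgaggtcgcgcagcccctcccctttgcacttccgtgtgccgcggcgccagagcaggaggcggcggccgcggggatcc
Ramp3, chr11:6658283-6658582, plus strand: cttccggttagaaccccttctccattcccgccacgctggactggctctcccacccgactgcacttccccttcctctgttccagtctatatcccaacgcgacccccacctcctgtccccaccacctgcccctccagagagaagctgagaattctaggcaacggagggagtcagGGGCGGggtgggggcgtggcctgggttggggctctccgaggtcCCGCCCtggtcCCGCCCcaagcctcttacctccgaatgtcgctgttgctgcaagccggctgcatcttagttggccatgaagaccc

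In the Tnnt1 window a TATA box starts 30 bases before the transcription start, with a GC box 51 bases before it. The Prkcd window has 4 GC boxes between 101 and 53 bases before the start and a TATA match at 244 bases before it, and the Ramp3 window has 3 GC boxes and no TATA match. The Tnnt1 window held 6 CpG pairs at 58.3% GC and the Prkcd window 26 at 69.3%, against medians of 7 CpG pairs and 52.7% GC over all mouse windows. RefSeq windows were found for 9 of the 10 genes, 13 windows in all. A GC box occurred in 8 of the 13, from 7 genes, against 35.7% of 32851 mouse windows of the same length, and 2 of the Vav3 windows overlap and share GC boxes. The letters TATAAA occurred in 4 of the 13, against 13.6%. Of these 4 matches the one in Tnnt1 lies 30 bases before the start, where TATA boxes sit, and those in Prkcd, Synpo2 and Vav3 lie 244, 233 and 221 bases before it. The TCF/LEF motif ATCAAAG and the nuclear receptor half-site AGGTCA, searched on both strands, matched 0 of the 13 windows, against 3.73% and 16.3% of all windows. None of these motifs overlaps another in the 3 printed windows.

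Levels between genes can be compared only per length. Per kilobase of annotated exon (CPM divided by exon length), Plcb4 was highest in NS-DADm mice at 13.4 ± 0.26, followed by Ntng1 at 7.83 ± 0.33 and Zmat4 at 6.60 ± 0.25 (SD, n = 3). In WT mice the same quantity put Prkcd (18.8 ± 9.3), Ramp3 (18.1 ± 7.3), Plcb4 (15.9 ± 0.57) and Ntng1 (14.7 ± 3.1) together at the top, with differences between neighbours smaller than their spread. Prkcd had 3.90 ± 1.5 and Ramp3 4.25 ± 0.75 in NS-DADm mice, close to Slitrk6 at 4.50 ± 0.40 and Plekhg1 at 3.73 ± 0.40. Tnnt1 (0.877 ± 0.38), Synpo2 (1.32 ± 0.22) and Vav3 (1.86 ± 0.19) were the lowest in NS-DADm mice, and the same 3 genes were the lowest in WT mice, with Tnnt1 at 4.41 ± 1.7, Synpo2 at 3.03 ± 0.94 and Vav3 at 4.17 ± 0.96. All annotated exons of a gene were counted in its length, so these levels depend on the annotation.

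The 10 genes were closely ordered by library inside each group. This comparison leaves out the group means, but the genes compared were chosen with the contrast known. Among WT mice all 10 had the order WT 1, WT 3, WT 2 from high to low, an order that 19.0% of all tested genes had. Among NS-DADm mice the lowest library was NS-DADm 2 for 8 of the 10, as in 36.8% of all tested genes, and the exceptions were Plcb4 and Zmat4, whose lowest value was in NS-DADm 1. The summed level of the 10 genes was 360, 325 and 361 CPM in NS-DADm 1, 2 and 3, against 793, 519 and 639 CPM in WT 1, 2 and 3. Thus WT 1 and WT 2 differed by more than any pair of NS-DADm libraries, and WT 2 was still above every NS-DADm library. Each gene was then centred on its own mean. A level shared by all 10 genes in a library accounted for 74.8% of their log2 variation over 6 libraries. That figure does include the gap between the groups, which was known when the genes were chosen. Of the variation left within groups, the shared level accounted for 65.6%. This within-group share was 75.6% among WT libraries and 48.9% among NS-DADm libraries. No such share was computed for other sets of genes. As whole-tissue RNA was measured, fewer cells of a type and less RNA per cell cannot be told apart.

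What differed between the genes was amplitude. Genes with a large gap between the groups also spread widely inside them, although these quantities share libraries and are set side by side only. Tnnt1 was 2.47-fold higher in NS-DADm 1 than in NS-DADm 2 and 2.20-fold higher in WT 1 than in WT 2, and Prkcd 2.27-fold and 2.55-fold. Ramp3 was 1.35-fold and 2.28-fold higher in the same pairs, Synpo2 1.37-fold and 1.82-fold. The other extreme was Plcb4, with 0.968-fold and 1.07-fold. The within-group standard deviation of log2 CPM ranked at the 99.6th percentile for Prkcd and Tnnt1 among genes averaging at least 1 CPM, at the 99.0th for Ramp3 and at the 97.8th for Synpo2, against the 10.9th percentile for Plcb4.

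In the fit across all genes (edgeR quasi-likelihood test, Benjamini-Hochberg adjusted p under 0.05), 0.654% of genes were called, 0.573% lower and 0.0818% higher in NS-DADm mice. Among the 10 markers 5 were called lower, namely Plekhg1, Slitrk6, Plcb4, Vav3 and Zmat4, a count from which nothing is read because the contrast was known when they were chosen. The genes with the largest folds, Tnnt1, Prkcd and Ramp3, were not among the calls, and they were also the genes with the widest spread between WT mice. The median log2 fold change of the 10 was -1.17, against 0.004 over all genes tested. NS-DADm libraries lay under WT libraries for all 10, as for 8.93% of all tested genes, and above them for 0, as for 7.86%. The count called changed with single libraries, being 1, 0 and 0 without NS-DADm 1, 2 and 3, and 4, 9 and 0 without WT 1, 2 and 3. In the same fits the number called among all genes was 106, 5 and 8 without NS-DADm 1, 2 and 3. Without WT 1, 2 and 3 it was 312, 262 and 10, against 104 with every library kept. Both counts fell without NS-DADm 2, NS-DADm 3 or WT 3, and both rose without WT 2, so those changes are not particular to the markers. Without NS-DADm 1 the count over all genes hardly changed, while the markers called fell from 5 to 1. Without WT 1 it rose to 312, while the markers called went from 5 to 4. Over the same fits the median log2 fold change ran from -1.31 without WT 2 to -0.96 without WT 1, and without NS-DADm 2 it was -1.08.

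Thalamic transcription factors outside the 10 markers were mostly low in the same libraries. This list and those below were written with earlier results of these data known, so their counts are descriptions. Of 12 tested, 3 fell and 0 rose beyond the genome-wide threshold, against 0.573% lower and 0.0818% higher among all tested genes. All 12 had negative log2 fold changes with a median of -0.70. Lef1, a TCF/LEF factor at the end of the WNT pathway, fell to 7.67 ± 0.34 CPM in NS-DADm mice, against 16.7 ± 3.0 CPM in WT mice (edgeR, BH adjusted p = 0.0028). Rora, a nuclear receptor, fell to 97.8 ± 9.0 CPM in NS-DADm mice, against 174 ± 26 CPM in WT mice (edgeR, BH adjusted p = 0.031). Prox1, a homeodomain factor also used elsewhere in the brain, fell to 24.4 ± 0.30 CPM in NS-DADm mice, against 30.7 ± 0.36 CPM in WT mice (edgeR, BH adjusted p = 0.027). Prox1 was the one with little spread, and its WT libraries did not follow the order of the markers. The count of 3 became 1, 0 and 1 without NS-DADm 1, 2 and 3, and 2, 11 and 1 without WT 1, 2 and 3, in the fits whose counts over all genes are given above. Lef1 was lost without NS-DADm 2 (edgeR, BH adjusted p = 0.061), and stayed past the threshold with every other single library left out. Rora lost its call without NS-DADm 1, 2 or 3, WT 1 or WT 3, and Prox1 without NS-DADm 1, 2 or 3 or WT 3.

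Tcf7l2, another TCF/LEF factor and a main regulator of thalamic identity, measured 43.1, 40.3 and 44.0 CPM in NS-DADm 1, 2 and 3, against 117, 68.0 and 115 CPM in WT 1, 2 and 3, and was not past the threshold (edgeR, BH adjusted p = 0.18). Shox2, a homeobox gene of relay neurons, and Gbx2, which specifies thalamic neurons in development, had log2 fold changes of -2.34 ± 0.49 and -1.94 ± 0.69 (SE) and were not past the threshold (edgeR, BH adjusted p = 0.22 and 0.45). Shox2 measured 6.38, 3.62 and 4.94 CPM in NS-DADm 1, 2 and 3, against 37.0, 13.9 and 24.5 CPM in WT 1, 2 and 3. Gbx2 measured 4.05, 2.90 and 3.27 CPM in NS-DADm 1, 2 and 3, against 21.2, 4.31 and 13.7 CPM in WT 1, 2 and 3. For Gbx2, WT 2 lay next to the NS-DADm libraries, and the order WT 1, WT 3, WT 2 held for 10 of the 12 factors.

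Other relay neuron genes, 14 in number and also listed with earlier results known, all had negative log2 fold changes (median -0.29). Past the threshold 2 of them fell and 0 rose, against 0.573% lower and 0.0818% higher among all tested genes. Rgs16, which switches off G-protein signals, fell to 31.8 ± 2.0 CPM in NS-DADm mice, against 55.6 ± 7.4 CPM in WT mice (edgeR, BH adjusted p = 0.0045). Gabra4, the GABA-A receptor subunit of tonic inhibition in relay neurons, fell to 50.5 ± 2.6 CPM in NS-DADm mice, against 84.5 ± 13 CPM in WT mice (edgeR, BH adjusted p = 0.024). Gabrd, the delta subunit that assembles with it, measured 5.56, 1.52 and 2.24 CPM in NS-DADm 1, 2 and 3, against 17.9, 7.31 and 10.9 CPM in WT 1, 2 and 3, and was not past the threshold (edgeR, BH adjusted p = 0.40). Slc17a6, the vesicular glutamate transporter of relay and of hypothalamic neurons, had 330 ± 15 CPM in NS-DADm mice, against 387 ± 12 CPM in WT mice (edgeR, BH adjusted p = 0.056). The count of 2 became 2, 0 and 1 without NS-DADm 1, 2 and 3, and 4, 4 and 0 without WT 1, 2 and 3. Rgs16 lost its call without NS-DADm 2 or WT 3, and Gabra4 without NS-DADm 2, NS-DADm 3 or WT 3.

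Genes of the inhibitory reticular cells could not settle whether the name reticular applies. Gad1, Gad2, Slc32a1 and Sst, which hypothalamic neurons also express, made up most of the summed level of the list, so a small reticular share would not be visible in it. Of 14 genes listed for these cells 0 were called in either direction. At an unadjusted p under 0.05, 1 was lower (7.14%) and 3 were higher (21.4%), against 6.46% lower and 4.40% higher among all tested genes. The median log2 fold change of the 14 was 0.11, and their summed level was 1856 to 1942 CPM in NS-DADm libraries, against 1754 to 1859 CPM in WT libraries. Log2 fold changes were negative for 3 of the 14 and positive for 11. Kcnn2, the 1 lower at that p, had 15.6 ± 2.8 CPM in NS-DADm mice, against 18.9 ± 0.76 CPM in WT mice (edgeR, BH adjusted p = 0.40). Pvalb, the calcium buffer parvalbumin, had 12.9 ± 1.8 CPM in NS-DADm mice, against 11.7 ± 1.4 CPM in WT mice. Cacna1i, the T-type calcium channel of reticular neurons, had 113 ± 0.91 CPM in NS-DADm mice, against 101 ± 3.7 CPM in WT mice (edgeR, BH adjusted p = 0.19). The groups overlapped for 13 of the 14 genes, as for 83.2% of all tested genes. The WT order of the markers held for 1, Spp1, and WT 2 was the highest WT library for 9 of the 14, as for 29.2% of all tested genes. DESeq2, run beside edgeR, also called 0 of the 14 lower.

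**Figure D2:**
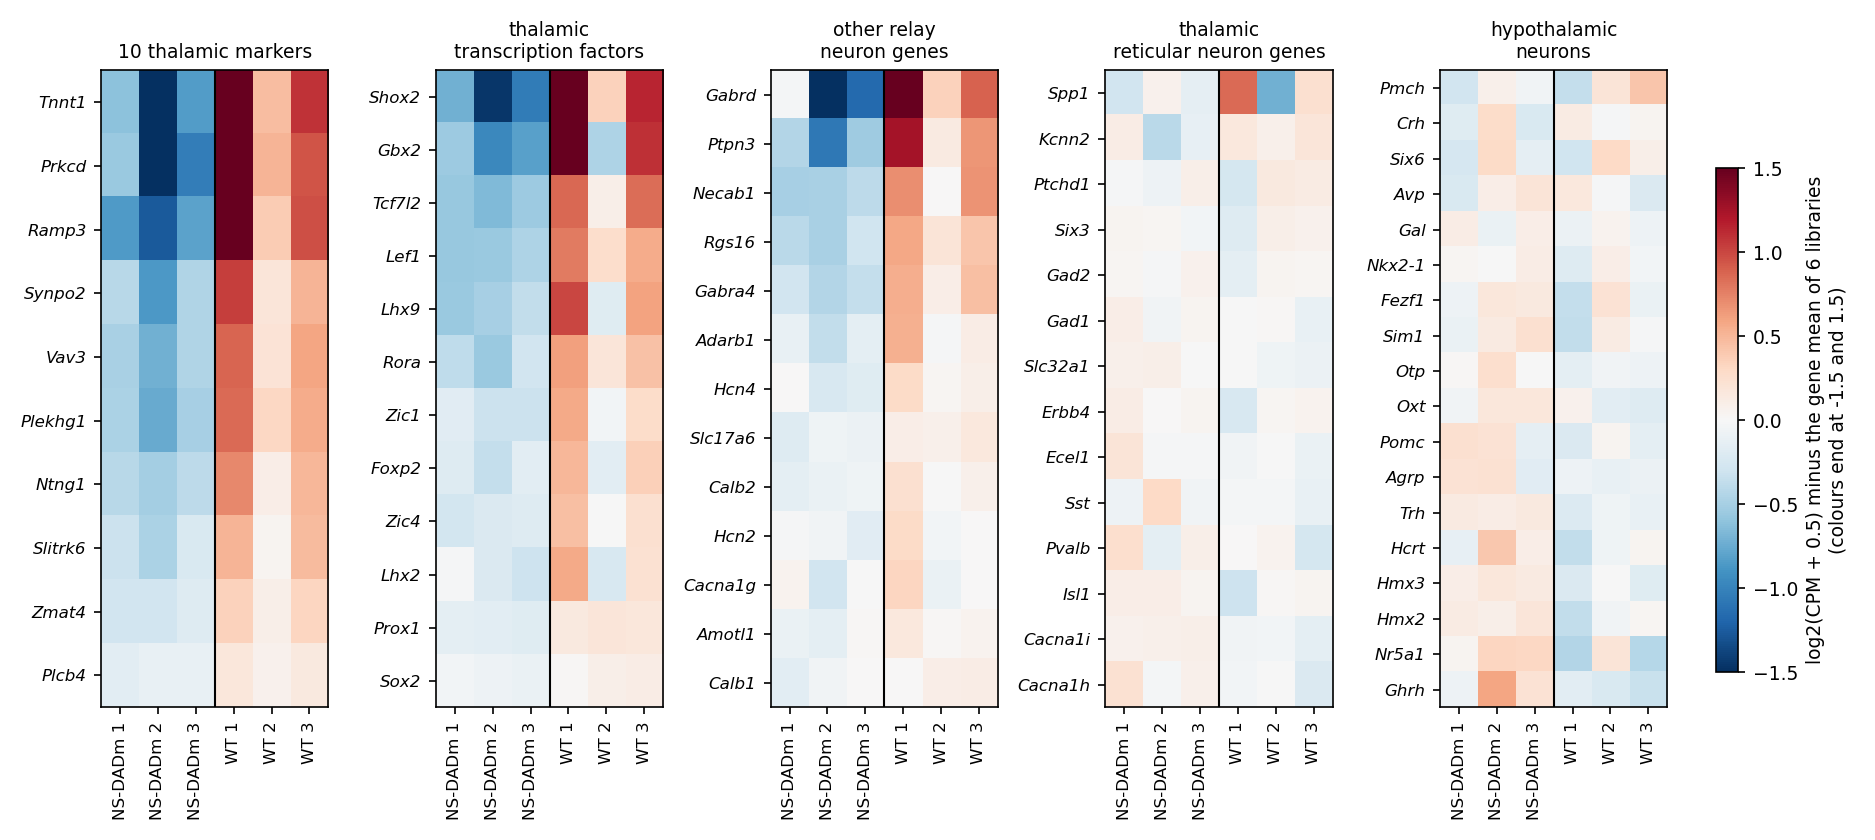
Level of each gene in each library as log2(CPM + 0.5) minus the gene's mean over 6 libraries (red high, blue low), for the 10 thalamic markers and genes of 4 other lists, with 3 NS-DADm libraries left of 3 WT libraries. The markers and most thalamic transcription factors are darkest red in WT 1 and palest in WT 2, whereas many hypothalamic genes are bluest in WT 1 among the WT libraries.

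Relatives and partners of the 10 genes lay close to 0 on the log2 scale. Of 28 tested, 0 were called in either direction (1 lower and 2 higher at an unadjusted p under 0.05; DESeq2 called 0 lower), the groups overlapped for 23 (82.1%, against 83.2% of all tested genes), and the median log2 fold change was 0.02. Ramp1 had 41.1 ± 0.37 CPM in NS-DADm mice, against 38.5 ± 0.96 CPM in WT mice, and Ramp2 had 7.62 ± 0.30 CPM in NS-DADm mice, against 8.25 ± 1.0 CPM in WT mice. The receptors that Ramp3 modifies had log2 fold changes of 0.02 ± 0.12 (Calcrl) and 0.15 ± 0.09 (Calcr, SE). Ntng2, the other netrin-G, had a log2 fold change of 0.24 ± 0.09 (SE; edgeR, BH adjusted p = 0.36), and Lrrc4c, the partner of Ntng1, had 0.03 ± 0.08. Slitrk1 to Slitrk5 lay between -0.18 and 0.07. Tnnt3 and Plekhg6 had at most 14 reads in any library and were left out by the count filter.

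**Figure D3:**
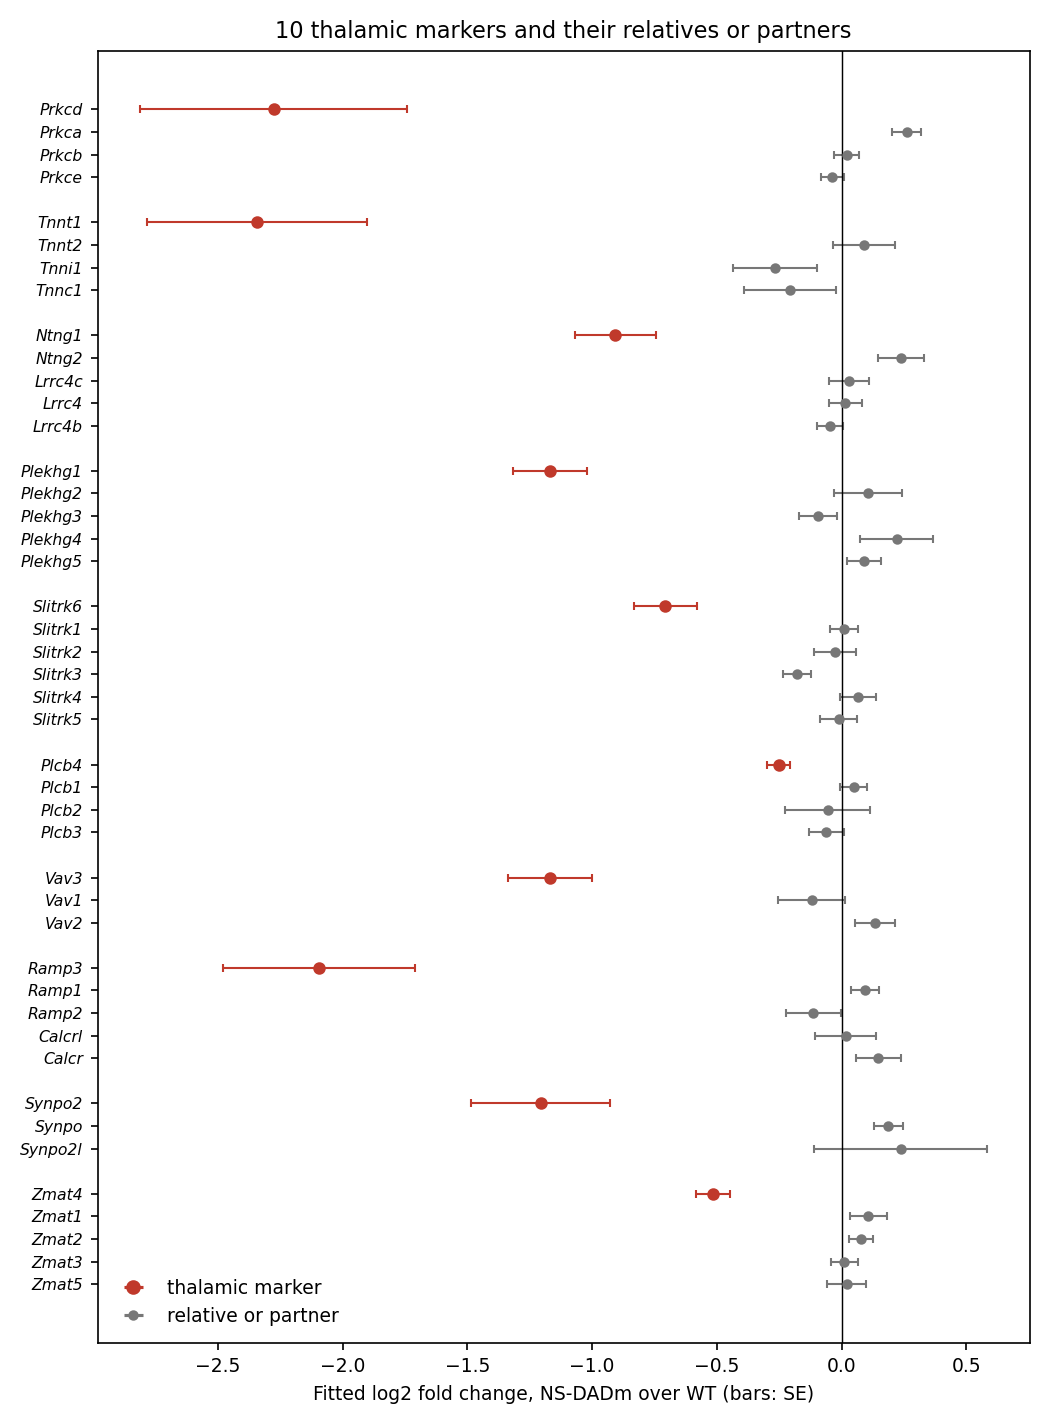
Fitted log2 fold change (NS-DADm over WT, bars SE) of each of the 10 thalamic markers (red) above its relatives or partners (grey). The red points run from -2.34 to -0.25, and the grey points drawn lie between -0.27 and 0.26.

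Genes of the pathway through Gq and phospholipase C were listed because Plcb4 and Prkcd belong to it. None of the 15 was called (2 lower and 1 higher at an unadjusted p under 0.05; 2 lower by DESeq2), with a median log2 fold change of -0.06. Prkca measured 111 ± 2.4 CPM in NS-DADm mice, against 92.8 ± 7.4 CPM in WT mice (edgeR, BH adjusted p = 0.071). Gnaq and Gna11, the G proteins above phospholipase C, had log2 fold changes of 0.004 and -0.004, and Plcb1 and Plcb3 had 0.05 and -0.06.

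The tissue label was checked on 18 hypothalamic neuron genes, all of which were detected and tested. Their summed level was 793 to 926 CPM in NS-DADm libraries, against 754 to 835 CPM in WT libraries. Past the threshold 1 of the 18 rose, Trh, against 0.0818% of all tested genes. Trh rose to 124 ± 1.4 CPM in NS-DADm mice, against 104 ± 5.3 CPM in WT mice (edgeR, BH adjusted p = 0.042). The Trh call was lost without NS-DADm 1, 2 or 3 or WT 3. Over these 18 genes the median was 0.19 on the log2 scale, opposite in sign to that of the thalamic markers. At an unadjusted p under 0.05, 0 were lower and 6 higher (33.3%), against 6.46% lower and 4.40% higher among all tested genes. Across WT libraries these genes ran largely opposite to the thalamic markers, with the order WT 2, WT 3, WT 1 from high to low for 10 of 18, as for 19.0% of all tested genes. WT 1 was the lowest WT library for 13 of the 18, as for 39.4% of all tested genes, and the part of these shifts in the thalamic values was not tested. Pan-neuronal genes had a median of -0.06 with 0 of 8 called by edgeR (3 lower, or 37.5%, at an unadjusted p under 0.05, 1 lower by DESeq2). Their summed level was 5370 to 5479 CPM in NS-DADm libraries, against 5603 to 5809 CPM in WT libraries. Genes of glia and vessels had a median of -0.16 with 0 of 11 called (5 lower, or 45.5%, at an unadjusted p under 0.05, 0 lower by DESeq2). Both shares are above the 6.46% of all tested genes that were lower at that p.

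Markers of other tissues next to the hypothalamus were set beside the thalamic genes, and whether tissue taken along in dissection plays a part in the thalamic values was not tested. Striatal genes (median log2 fold change -0.11) had 0 of 8 called, with summed levels of 293 to 382 CPM in NS-DADm libraries, against 305 to 358 CPM in WT libraries. The order WT 1, WT 3, WT 2 also held for 6 of these 8 genes, among them Adora2a, with 3.68, 0.905 and 0.799 CPM in NS-DADm 1, 2 and 3, against 4.64, 0.804 and 3.22 CPM in WT 1, 2 and 3. Its groups overlapped, NS-DADm 1 being above WT 2 and WT 3. Habenula genes had 0 of 7 called (median 0.04), at summed levels of 90.5 to 96.5 CPM in NS-DADm libraries, against 78.9 to 95.1 CPM in WT libraries. Tac2, Nwd2 and Lrrc55 made up most of that sum, so scarcer genes hardly show in it. Log2 fold changes were negative for 3 of the 7 and positive for 4. The most negative was Gpr151, with 1.23, 1.09 and 1.37 CPM in NS-DADm 1, 2 and 3. It had 2.63, 1.72 and 2.16 CPM in WT 1, 2 and 3 (edgeR, BH adjusted p = 0.11). Of genes of cortex and hippocampus 0 of 7 were called (median 0.05), and Slc17a7, a vesicular glutamate transporter that some thalamic nuclei also express, measured 7.08, 1.81 and 5.78 CPM in NS-DADm 1, 2 and 3, against 34.0, 14.5 and 20.2 CPM in WT 1, 2 and 3. Anterior pituitary genes had 0 of 6 called (median 2.78), with summed levels of 198 to 2016 CPM in NS-DADm libraries, against 38.9 to 110 CPM in WT libraries, and choroid plexus genes 0 of 6 (median 0.32). At an unadjusted p under 0.05 the counts in these lists were 0 lower and 1 higher for striatum, 1 and 0 for habenula, 1 and 0 for cortex and hippocampus, 0 and 1 for pituitary and 1 and 2 for choroid plexus. DESeq2 called Slc17a7 lower and 0 others lower in these lists.

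**Figure D4:**
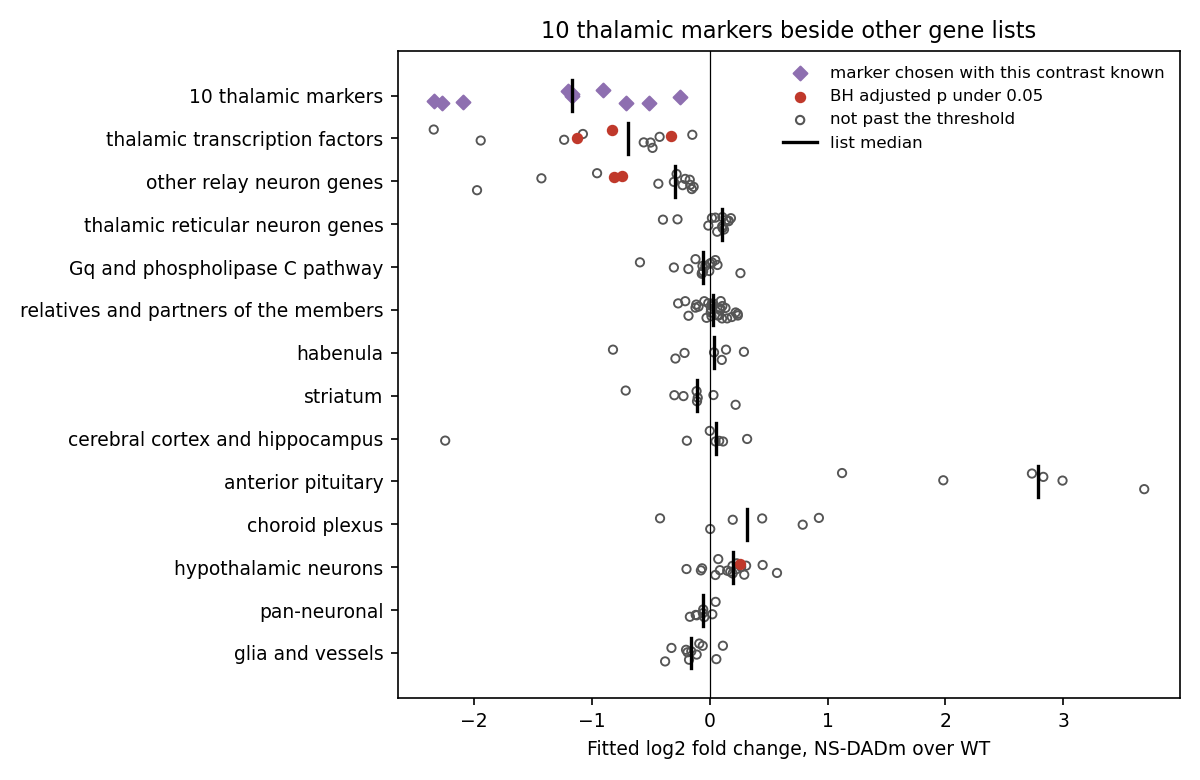
Fitted log2 fold changes (NS-DADm over WT) of the 10 thalamic markers (diamonds, no test claimed) and of the tested genes of 13 other lists (circles, filled red past the BH threshold), with each list's median as a bar. Thalamic transcription factors and other relay neuron genes lie to the left with medians of -0.70 and -0.29, while the reticular list has a median of 0.11.

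Genes most like the markers were sought from differences within groups, with the group means left out. The markers that served as the pattern were themselves chosen with the contrast known, so the genes found are given as a description. Likeness was the correlation over 6 libraries of a gene's log2 CPM, centred on its group mean, with the mean of the 10 markers, among genes of at least 1 CPM whose slope was at least 0.5. With 3 libraries a group such values are high for many genes, and 73 of 14524 genes reached 0.95 at that slope. The 10 highest, with r between 0.990 and 0.999, were Sntb1, Cox7a1, Scube2, Ptpn3, Sdsl, Tmprss7, Fam212a, Cck, Grid2ip and Pde1b. Of these, Sntb1 was called lower, at 4.42 ± 0.55 CPM in NS-DADm mice, against 7.54 ± 1.4 CPM in WT mice (edgeR, BH adjusted p = 0.040), a call lost without NS-DADm 1, 2 or 3 or WT 3 and with limma voom (adjusted p = 0.057). Ptpn3 measured 34.9, 22.5 and 32.8 CPM in NS-DADm 1, 2 and 3, against 114, 52.4 and 75.6 CPM in WT 1, 2 and 3 (edgeR, BH adjusted p = 0.33). Cck, which encodes the peptide cholecystokinin, measured 14.5, 10.1 and 14.3 CPM in NS-DADm 1, 2 and 3, against 46.9, 21.2 and 30.4 CPM in WT 1, 2 and 3 (edgeR, BH adjusted p = 0.33).

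Most, not all, of the genes alike within groups also lay lower in NS-DADm mice. Of the 73, log2 fold changes were negative for 58, against 48.5% of the 14524, and their median was -0.30, against 0.003. The threshold was passed by 5 of the 73, all lower, against 0.573% lower among all tested genes. Without NS-DADm 1, 2 and 3 it was passed by 1, 0 and 0 of the 73, all lower. Without WT 1, 2 and 3 the numbers were 7, 22 and 0 lower, and without WT 1 another 1 was called higher. Sdsl, at 5.56 ± 0.95 CPM in NS-DADm mice, against 5.10 ± 1.2 CPM in WT mice, and Tmprss7 were the 2 of the top 10 with positive log2 fold changes, of 0.12 and 0.02.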

How the data were processed

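Hypothalamic RNA of 6 mice, 3 NS-DADm and 3 WT, was sequenced as 1 library per mouse. The authors deposited raw read counts per gene symbol, aligned to mm10 with TopHat2 2.0.9 and counted with HTSeq, per the submitters' processing notes. For the HTSeq version, annotation and strand setting the sources used here give nothing. The 5 rows of unassigned reads (28.7 to 31.2% of entries) were dropped. Low counts were removed by filterByExpr, library sizes adjusted by TMM (factors 0.992 to 1.01), and genes tested with edgeR 4.0.16 (quasi-likelihood, robust) in R 4.3.3, with BH adjustment over 15894 genes. SE were derived from the fold change and F. Log2 CPM used a prior count of 2. DESeq2 1.42.0 and limma 3.58.1 were alternatives, and the fit was tested on simulated data. Positions and lengths came from GENCODE (mm10), and BLAST 2.17.0 found the closest transcripts. The members, lists and tests were chosen with earlier results of these data known. Named genes were all markers, from each list called genes and up to 4 with the smallest p, and the 10 most alike within groups. Gnaq, Gna11, Pvalb, Adora2a and other list genes named for their role or level were chosen after their values were seen. Same-numbered libraries were not paired by the labels. A few list genes counted in the totals are not reported here by name or drawn with a label.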

Additional observations from a re-analysis of the deposited data

How the results depend on the processing

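All 10 markers kept negative log2 fold changes in each of the 13 alternatives run, with medians from -1.31 to -0.96, and RLE or upper-quartile scaling moved no list's count by over 1.5 times. The number of genes called was 282 with DESeq2, 203 without a count filter and 409 with the replicate block, and 5 to 312 with a library left out. Markers called lower numbered 10 with DESeq2, 3 with limma voom, 2 without a filter, 10 with the replicate block, and 0 to 9 with a library left out. Thalamic transcription factors called lower numbered 7 with DESeq2 and 7 with the block, and 0 to 11 with a library left out. Other relay genes numbered 6, 4 (no filter) and 7 (block), and 0 to 4 with a library left out. Genes of the Gq pathway numbered 2 with DESeq2, 1 without a filter and 2 with the block, and 0 to 2 with a library left out. With DESeq2, 1 cortical and 1 pan-neuronal gene were called lower, and with the block 1 each of habenula, cortex, pan-neuronal and glia. A library left out gave 0 to 1 for relatives, habenula and glia. Without a filter 2 of the 10 most alike genes were called. The cause of these changes was not tested. Replicate numbers were shared by label only: deviations of same-numbered libraries correlated across genes at 0.13, 0.09 and -0.03, so the block is no evidence of pairing. With 3 mice a group, calls for genes that vary widely between WT mice rest on few animals.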
